A study of Mus musculus with 20 samples.

Results

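Syndecans and glypicans are the core proteins that carry most of the heparan sulfate on the cell surface. The mouse has 4 syndecan genes, Sdc1 to Sdc4, and 6 glypican genes, Gpc1 to Gpc6, and these 10 genes, chosen by symbol, were followed among the 57126 gene identifiers of the count files. Syndecans span the membrane and reach the cytoskeleton through a short cytoplasmic tail, whereas glypicans are held to the outer leaflet by a lipid anchor and can be released. The heparan sulfate chains of both families bind growth factors, morphogens and adhesion proteins and act as co-receptors for them. In the brain, syndecans take part in axon guidance and in shaping dendritic spines, and glypicans released by astrocytes promote excitatory synapse formation.

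The libraries came from whole hippocampus of 20 adrenalectomized male C57BL/6 mice, with 5 mice in each of 4 groups. The groups were homozygous GRA knockin mice given dexamethasone, GRA knockin mice given phosphate-buffered saline (PBS), wild-type mice given dexamethasone and wild-type mice given PBS. The GRA knockin allele replaces exon 2 of Nr3c1, the glucocorticoid receptor gene, with a version whose start codons for the N-terminally shorter receptor forms are changed, and its full-length product is called GRA. The allele is present in all cells of the animal. All mice of all 4 groups had lost their adrenal glands, the main source of glucocorticoid, at about 2.5 months of age. Dexamethasone, a synthetic glucocorticoid, was injected into the peritoneum at 1 mg per kg 2 weeks after surgery, and tissue was taken 6 h after the injection.

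Levels are given in CPM, the read pairs of a gene scaled to a fixed library total, after a correction for library composition by the TMM method (trimmed mean of M values). Library totals ran from 11493014 to 48267708 read pairs. Of the 10 genes, 9 passed the filter on low counts and entered the test among 18648 genes. Gpc2 did not, with 2 to 14 read pairs in a library. A gene was called at an adjusted p below 0.05 in edgeR's quasi-likelihood test, with Benjamini-Hochberg adjustment over all genes tested. Nr3c1 was transcribed in every group, at 111 ± 8.69 CPM in knockin dexamethasone, 163 ± 24.1 CPM in knockin PBS, 98.6 ± 8.27 CPM in wild-type dexamethasone and 136 ± 21.8 CPM in wild-type PBS libraries (SD, n = 5 each). A count over the whole gene does not reveal changed start codons, and the level of Nr3c1 therefore does not check the genotype labels. Markers of other tissues differed between libraries. Summed choroid plexus markers reached 1450 CPM in knockin dexamethasone replicate 2 and 1870 CPM in wild-type PBS replicate 4, against 41.5 to 627 CPM in the others. A sum over 14 liver markers was 253 and 143 CPM in wild-type PBS replicates 1 and 2, against 4.77 to 57.3 CPM in the others. Where a member's call changed without either pair, or Sdc1 moved, both values are given.

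Sdc4 and Sdc3 are the called members that have an entry in the RefSeq promoter table, and the 250 bases before their annotated starts are shown because they are the nearest regulatory sequence the reference offers. The sequences are 5′ to 3′ on the strand of the gene, from build GRCm38.p6, which differs from the mm39 build of the counts, and capitals mark the GC box GGGCGG on either strand. The Sdc4 stretch lies at chr2:164443189-164443438 on the minus strand and the Sdc3 stretch at chr4:130792287-130792536 on the plus strand.
Sdc4: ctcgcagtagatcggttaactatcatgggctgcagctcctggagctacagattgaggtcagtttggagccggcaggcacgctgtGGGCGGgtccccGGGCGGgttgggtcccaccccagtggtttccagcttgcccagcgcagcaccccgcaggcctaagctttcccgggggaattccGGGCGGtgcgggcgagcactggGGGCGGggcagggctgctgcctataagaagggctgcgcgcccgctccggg
Sdc3: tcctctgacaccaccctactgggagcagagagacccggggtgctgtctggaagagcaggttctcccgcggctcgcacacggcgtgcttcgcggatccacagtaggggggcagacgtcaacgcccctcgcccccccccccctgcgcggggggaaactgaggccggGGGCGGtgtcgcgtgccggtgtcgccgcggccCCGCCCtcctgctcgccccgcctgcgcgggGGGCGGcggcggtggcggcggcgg
The Sdc4 stretch holds 4 GC boxes, which begin 166, 154, 72 and 50 bases before the start, and the Sdc3 stretch holds 3, which begin 86, 54 and 24 bases before it. Of the 10 genes, 7 had an entry (not Sdc2, Gpc1 or Gpc6), and all 7 held at least 1 GC box, against 32.7% of all 32851 promoters of this length in the table. The full palindromic glucocorticoid response element, AGAACA and TGTTCT with any 3 bases between them, searched on both strands, was in 0 of these 7 stretches, and in 0.00913% of all promoters. Its 6-base arm TGTTCT, which the full element contains, was also in 0 of the 7, against 16.1% of all promoters. The sequence TATAAA was in 1 of the 7, that of Gpc5, against 12.4% of all. The match in Gpc5 lies on the strand opposite to the gene. A match or its absence describes these letters in this window alone.

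Sdc4 encodes syndecan-4, the syndecan of focal adhesions, whose cytoplasmic tail binds protein kinase C alpha. Its gene (ENSMUSG00000017009.4) lies on mm39 chromosome 2, 164266167 to 164285106, minus strand, and overlaps no other annotated gene. Sdc4 had 139, 138, 141, 156 and 150 CPM in the 5 knockin dexamethasone libraries, against 57.5, 50, 54.6, 64.7 and 54.5 CPM in the 5 knockin PBS libraries. In wild-type mice it had 144, 153, 124, 134 and 129 CPM under dexamethasone, against 57.1, 69.5, 51.7, 54.8 and 58.0 CPM under PBS. Every dexamethasone library was above every PBS library, in both genotypes, and the lowest of them was well clear of the highest PBS library. The group means were 145 ± 8.08 CPM in knockin dexamethasone and 56.3 ± 5.43 CPM in knockin PBS libraries, and 137 ± 11.9 CPM in wild-type dexamethasone and 58.2 ± 6.77 CPM in wild-type PBS libraries (SD, n = 5 each).

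Sdc4 rose in both genotypes. In knockin mice the log2 fold change of dexamethasone over PBS was 1.36 (standard error SE 0.08, 95% interval 1.20 to 1.52, edgeR adjusted p = 1.85e-10), a 2.57-fold higher level. In wild-type mice it was 1.23 (SE 0.08, interval 1.07 to 1.39, edgeR adjusted p = 1.22e-09), a 2.34-fold higher level. The genotypes did not differ detectably in this response: the knockin response minus the wild-type response was 0.13 (SE 0.11, interval -0.09 to 0.36, edgeR adjusted p = 1.0). Averaged over both genotypes the response was 1.29 (SE 0.05, edgeR adjusted p = 5.79e-13). Among all genes tested, Sdc4 stood at rank 20 by p in knockin and 18 in wild-type mice. By size it was rank 97 of 985 genes called higher in knockin mice and rank 114 of 983 in wild-type mice, where the median called rise was 0.36 and 0.34 on the log2 scale. The fold change stayed between 1.32 and 1.42 in knockin and between 1.18 and 1.31 in wild-type mice under all 29 alternatives, and was called in each.

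**Figure D1:**
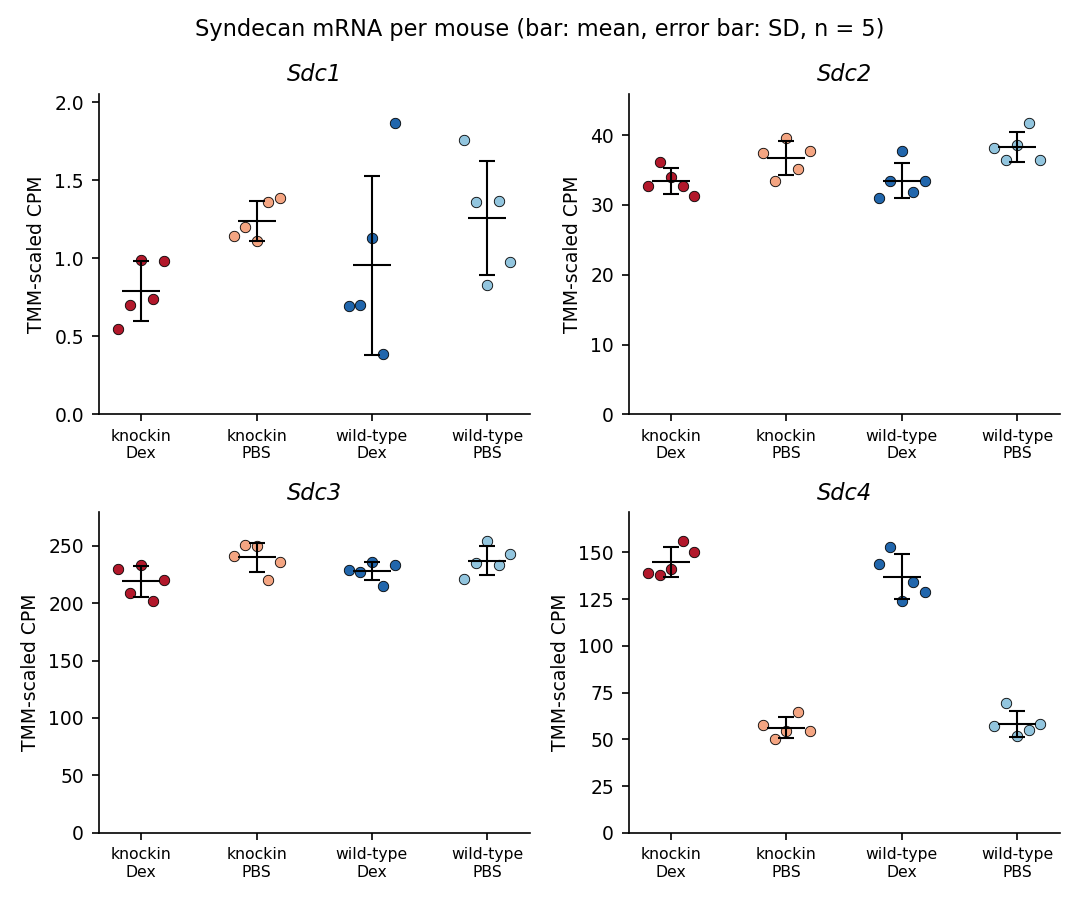
Each panel plots the TMM-scaled CPM of a syndecan gene in every mouse (points), with the group mean and SD (n = 5), for knockin dexamethasone, knockin PBS, wild-type dexamethasone and wild-type PBS mice. Sdc4 is at 124 to 156 CPM in all 10 dexamethasone mice and at 50 to 69.5 CPM in all 10 PBS mice, while the Sdc2 and Sdc3 groups lie close together and Sdc1 is below 2 CPM in all mice.

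Sdc4 is made by astrocytes and by vessel cells, and in whole tissue fewer cells of a type and less RNA per cell cannot be told apart. The summed level of 12 astrocyte markers was 7560 to 8350 CPM in knockin dexamethasone and 7470 to 8050 CPM in knockin PBS libraries, and 7470 to 7770 CPM in wild-type dexamethasone and 7500 to 7900 CPM in wild-type PBS libraries. These ranges overlap in each genotype, and of the 12 markers 3 were called higher and 1 lower in each genotype. The sum can hide moves of its less abundant markers. In knockin mice Gjb6 averaged 85.1 CPM under dexamethasone and 30.8 CPM under PBS, Fgfr3 149 and 89.3, and Aldh1l1 77.5 and 51.6. Aqp4 was lower, at 176 and 237 CPM. In wild-type mice these genes averaged, in this order, 85.3, 155, 75.7 and 182 CPM under dexamethasone. Under PBS they averaged 34.1, 99.7, 51.8 and 240 CPM. The marker counts stand beside a share of called genes among all tested of 10.0% in knockin and 9.21% in wild-type mice. The summed level of 12 endothelial markers was 317 to 361 CPM in knockin dexamethasone and 340 to 391 CPM in knockin PBS libraries, and 312 to 375 CPM in wild-type dexamethasone and 360 to 404 CPM in wild-type PBS libraries. Of these, 1 was called higher and 3 lower in knockin mice, and 1 higher and 2 lower in wild-type mice. Among 12 mural and meningeal markers, 1 was called higher and 1 lower in knockin mice and 0 in wild-type mice. Oligodendrocyte precursor markers summed to 684 to 739 CPM in knockin dexamethasone and 630 to 654 CPM in knockin PBS libraries. In wild-type mice they summed to 670 to 745 CPM under dexamethasone and 614 to 666 CPM under PBS. Of these 8 markers, 5 were called higher in knockin and 4 in wild-type mice. Microglia markers summed to 448 to 469 CPM in knockin dexamethasone and 495 to 550 CPM in knockin PBS libraries, with 5 of 12 called lower in knockin mice, and to 450 to 503 CPM in wild-type dexamethasone and 493 to 570 CPM in wild-type PBS libraries, with 2 called higher and 4 lower. Of 12 mature oligodendrocyte markers, 5 were called lower in knockin and 4 in wild-type mice, and in the mean response 6 lower and 1 higher. Their sums overlapped, at 5060 to 6050 CPM in knockin dexamethasone and 5090 to 6960 CPM in knockin PBS libraries. In wild-type mice the sums were 4030 to 5820 CPM under dexamethasone and 5290 to 5810 CPM under PBS. None of the markers was without a read in every library. The part of these cell types in the Sdc4 values was not tested.

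Sdc2 encodes syndecan-2, which in neurons takes part in the maturation of dendritic spines (gene ENSMUSG00000022261.7, mm39 chromosome 15, 32920869 to 33035081, plus strand). It had 32.7, 36.2, 34, 32.7 and 31.3 CPM in knockin dexamethasone libraries, against 37.5, 33.4, 39.6, 35.1 and 37.8 CPM in knockin PBS libraries. In wild-type mice it had 31.0, 33.4, 37.7, 31.9 and 33.5 CPM under dexamethasone, against 38.1, 36.4, 38.6, 41.8 and 36.5 CPM under PBS. The groups overlapped in both genotypes, in wild-type mice through dexamethasone replicate 3 alone. In wild-type mice Sdc2 fell by 0.18 log2 units (SE 0.06, edgeR adjusted p = 0.0362). In knockin mice the value was -0.13 (SE 0.06, edgeR adjusted p = 0.146), which was not called, and the difference between the responses was 0.05 (SE 0.08, edgeR adjusted p = 1.0). Averaged over both genotypes it fell by 0.16 (SE 0.04, edgeR adjusted p = 0.00449), and this call held in all 28 alternatives that could be run. The wild-type call was lost without PBS replicate 1, 3 or 4, without dexamethasone replicate 1, 2, 4 or 5 (edgeR adjusted p 0.0593 to 0.123) and without the pair high in choroid plexus markers (-0.15, edgeR adjusted p = 0.0967).

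Sdc3 encodes syndecan-3, the syndecan of neurons and their axons, which binds the growth factor pleiotrophin (gene ENSMUSG00000025743.15, mm39 chromosome 4, 130519848 to 130553630, plus strand). It had 230, 209, 233, 202 and 220 CPM in knockin dexamethasone libraries, against 241, 251, 250, 220 and 236 CPM in knockin PBS libraries. In wild-type mice it had 229, 227, 236, 215 and 233 CPM under dexamethasone, against 221, 235, 254, 233 and 243 CPM under PBS. Both pairs of groups overlapped. The log2 fold change was -0.13 (SE 0.04, edgeR adjusted p = 0.0621) in knockin and -0.06 (SE 0.04, edgeR adjusted p = 0.54) in wild-type mice, neither of them called. The knockin value was called without the pair high in liver markers (-0.14, edgeR adjusted p = 0.0432). Averaged over both genotypes Sdc3 fell by 0.09 (SE 0.03, edgeR adjusted p = 0.037). That small call was lost without any 1 of 10 libraries (wild-type PBS 3 and 5, wild-type dexamethasone 2 and 4, knockin PBS 1, 2 and 3, knockin dexamethasone 2, 4 and 5), with an edgeR adjusted p of up to 0.0813. It was also lost without the pair high in choroid plexus markers (edgeR adjusted p = 0.0805). Summed neuron markers did not separate the groups, at 13200 to 14300 CPM in knockin dexamethasone and 13000 to 14400 CPM in knockin PBS libraries, and 13400 to 14100 CPM in wild-type dexamethasone and 12800 to 13900 CPM in wild-type PBS libraries.

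Sdc1 encodes syndecan-1, best known from epithelia and plasma cells (gene ENSMUSG00000020592.16, mm39 chromosome 12, 8821323 to 8843715, plus strand). With 5 to 37 read pairs in a library it is the least abundant member that was tested, and counting error is large. It had 0.545, 0.703, 0.987, 0.737 and 0.985 CPM in knockin dexamethasone libraries, against 1.14, 1.20, 1.11, 1.36 and 1.39 CPM in knockin PBS libraries. In wild-type mice it had 0.694, 0.703, 1.13, 0.384 and 1.87 CPM under dexamethasone, against 1.76, 1.36, 0.826, 1.37 and 0.977 CPM under PBS. The knockin groups did not overlap, whereas the wild-type groups did, and wild-type dexamethasone replicate 5 was the highest of all 20 libraries. The log2 fold change was -0.69 (SE 0.28, edgeR adjusted p = 0.141) in knockin and -0.32 (SE 0.28, edgeR adjusted p = 0.599) in wild-type mice, and neither was called. The knockin value was called with the compared groups alone (-0.70, edgeR adjusted p = 0.0374). The wild-type value ran from -0.67 to -0.16 when single libraries were left out, and was -0.04 without the pair high in liver markers. The mean over both genotypes was -0.50 (SE 0.20, edgeR adjusted p = 0.0819), and -0.37 without that pair. Without wild-type dexamethasone replicate 5 it was -0.68 (edgeR adjusted p = 0.00848) and without wild-type PBS replicate 3 it was -0.57 (edgeR adjusted p = 0.046). It was also called by limma-voom with sample quality weights on all 20 libraries (-0.58, adjusted p = 0.0377).

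In knockin mice, then, 1 of 9 members was called (Sdc4, higher), against 10.0% of all genes tested. In wild-type mice 2 of 9 were called (Sdc4 higher, Sdc2 lower), against 9.21% of all. In the mean response over both genotypes 3 of 9 were called (Sdc4 higher, Sdc2 and Sdc3 lower), against 18.2% of all. With 9 members these counts stand close to the background. The median log2 fold change of the 9 was -0.05 in knockin and 0.00 in wild-type mice, and the median over all genes was near 0. Both genotype comparisons and the difference of responses called 0 of 9 members and 0 of all genes by edgeR, DESeq2 and limma-voom on all 20 libraries (background 0%). With the compared groups alone, edgeR called 1 of 17792 genes lower in knockin than in wild-type mice under dexamethasone, and it was not a member. At an unadjusted p below 0.05 edgeR gave 0 members under PBS, 1 under dexamethasone and 0 for the difference of responses, against 673, 828 and 527 of all genes.

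**Figure D2:**
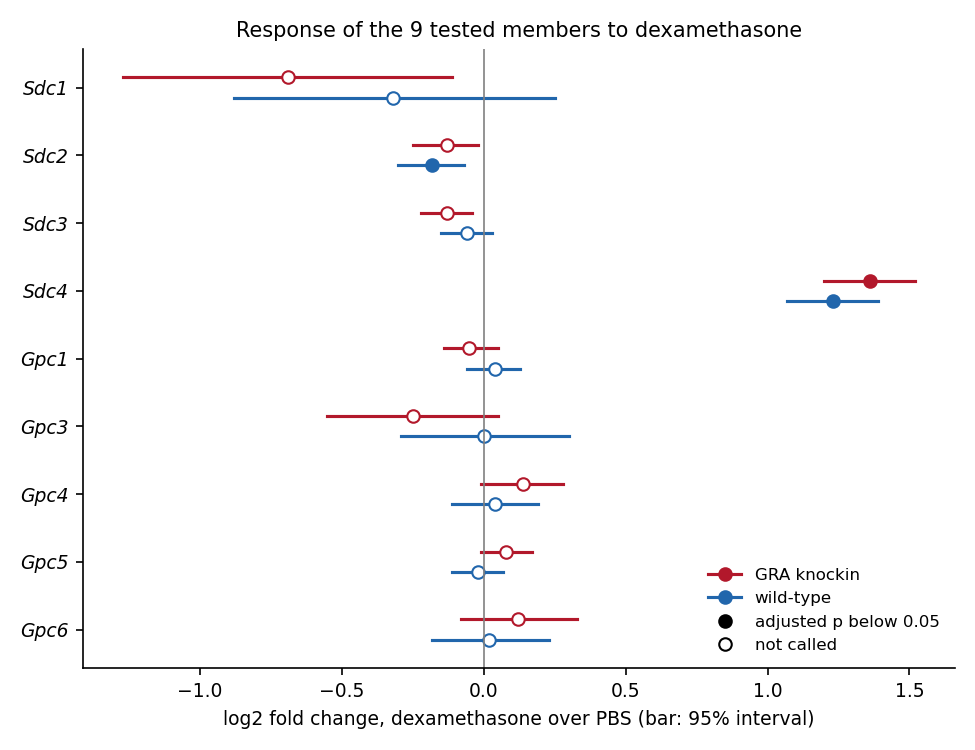
The log2 fold change of dexamethasone over PBS is plotted with its 95% interval for the 9 tested members, in GRA knockin and wild-type mice; filled points passed an adjusted p below 0.05. Sdc4 stands apart at 1.36 and 1.23, Sdc2 is filled in wild-type mice at -0.18, and the other intervals reach or lie close to 0.

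No glypican was called by edgeR, DESeq2 or limma-voom in any comparison or alternative run. At an unadjusted p below 0.05 edgeR gave 0 of the 5 tested for dexamethasone against PBS in either genotype. Among all 18648 genes tested it gave 3882 in knockin and 3712 in wild-type mice. With 5 genes the count of 0 does not stand apart from that share. Gpc1 (ENSMUSG00000034220.8, mm39 chromosome 1, 92759367 to 92788501, plus strand) encodes a glypican of neurons and many other cells. It averaged 143 ± 4.36 CPM in knockin dexamethasone and 148 ± 9.45 CPM in knockin PBS libraries, and 146 ± 6.37 CPM in wild-type dexamethasone and 142 ± 10.6 CPM in wild-type PBS libraries (SD, n = 5 each). Its log2 fold change was -0.05 (interval -0.14 to 0.05) in knockin and 0.04 (interval -0.06 to 0.13) in wild-type mice. These intervals were among the narrowest of the glypicans.

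Gpc4 and Gpc6 encode the glypicans that astrocytes release and that promote the recruitment of AMPA receptors to young synapses. Gpc4 (ENSMUSG00000031119.5, mm39 chromosome X, 51141898 to 51254129, minus strand) had 44.7, 49.9, 47.8, 55.1 and 51.4 CPM in knockin dexamethasone libraries, against 47.0, 42.7, 39.3, 48.1 and 49.3 CPM in knockin PBS libraries. In wild-type mice it had 48.0, 43.5, 43.8, 38.0 and 48.1 CPM under dexamethasone, against 39.3, 48.3, 41.3, 42.9 and 44.1 CPM under PBS. All of these groups overlapped. The log2 fold change was 0.14 (interval -0.01 to 0.28) in knockin and 0.04 (interval -0.11 to 0.19) in wild-type mice. Under dexamethasone the knockin level was 0.16 above wild-type on the log2 scale (SE 0.07, unadjusted p = 0.0315, edgeR adjusted p = 1.0), which is the 1 member named above by its unadjusted p and did not pass the test. Gpc6 (ENSMUSG00000058571.12, mm39 chromosome 14, 117162842 to 118213956, plus strand) averaged 8.30 ± 0.933 CPM in knockin dexamethasone and 7.70 ± 1.34 CPM in knockin PBS libraries, and 8.47 ± 0.693 CPM in wild-type dexamethasone and 8.46 ± 0.916 CPM in wild-type PBS libraries. Its log2 fold change was 0.12 (interval -0.08 to 0.33) in knockin and 0.02 (interval -0.18 to 0.23) in wild-type mice.

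Gpc5 (ENSMUSG00000022112.15, mm39 chromosome 14, 115329682 to 116762591, plus strand) encodes a glypican found in brain, also in astrocytes. It averaged 44.4 ± 1.09 CPM in knockin dexamethasone and 42.1 ± 1.78 CPM in knockin PBS libraries, and 43.7 ± 2.27 CPM in wild-type dexamethasone and 44.2 ± 2.31 CPM in wild-type PBS libraries. Its log2 fold change was 0.08 (interval -0.01 to 0.17) in knockin and -0.02 (interval -0.11 to 0.07) in wild-type mice. Gpc3 (ENSMUSG00000055653.14, mm39 chromosome X, 51361303 to 51702827, minus strand) encodes a glypican that binds hedgehog proteins during development. It averaged 4.19 ± 0.709 CPM in knockin dexamethasone and 5.04 ± 0.755 CPM in knockin PBS libraries, and 4.88 ± 1.18 CPM in wild-type dexamethasone and 4.98 ± 0.485 CPM in wild-type PBS libraries. The intervals were wide, with -0.25 (-0.55 to 0.05) in knockin and 0.00 (-0.29 to 0.30) in wild-type mice on the log2 scale. A moderate change could therefore have been missed. Gpc2 (ENSMUSG00000029510.16, mm39 chromosome 5, 138271917 to 138278267, minus strand), a glypican of developing neurons, held 145 read pairs over all 20 libraries. It averaged 0.319 ± 0.117 CPM in knockin dexamethasone and 0.394 ± 0.0901 CPM in knockin PBS libraries, and 0.297 ± 0.124 CPM in wild-type dexamethasone and 0.267 ± 0.126 CPM in wild-type PBS libraries. With no filter its log2 fold change was -0.28 (SE 0.39) in knockin and 0.15 (SE 0.42) in wild-type mice.

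**Figure D3:**
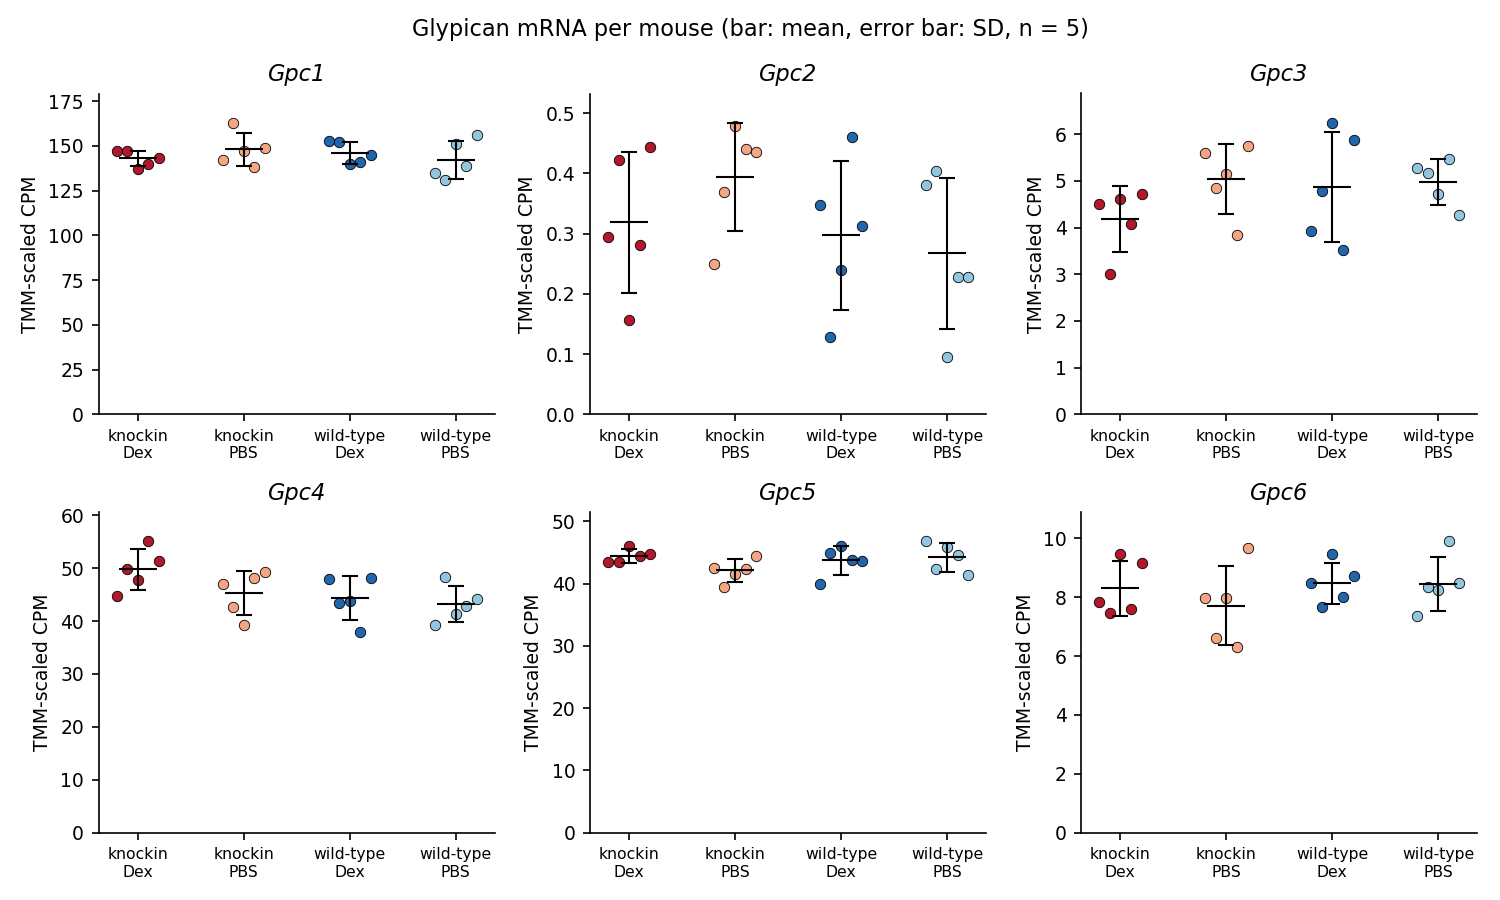
Each panel plots the TMM-scaled CPM of a glypican gene in every mouse (points), with the group mean and SD (n = 5), for the same 4 groups. In each panel the groups overlap, from Gpc1 at 131 to 163 CPM to Gpc2 below 0.5 CPM.

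Of the 6 glypican genes, 4 lie in pairs: Gpc3 and Gpc4 are close together on the minus strand of chromosome X, and Gpc5 and Gpc6 on the plus strand of chromosome 14. The gene spans differ far more than the transcripts, at 1430 kb for Gpc5 and 1050 kb for Gpc6 against 18.9 kb for Sdc4. Within each pair the levels differed, as the length-scaled values show. The counting ignored strand, and Sdc3, Gpc1, Gpc2, Gpc3, Gpc5 and Gpc6 overlap other annotated genes. Those overlapping Sdc3 and Gpc1 held 37 and 201 read pairs over all 20 libraries, against 108545 for Sdc3 and 67983 for Gpc1. Those overlapping Gpc2 and Gpc5 held 5 each, and those overlapping Gpc3 and Gpc6 held 0. Read pairs that hit both genes may be missing from these totals, and their number is not known.

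To set the genes against each other, CPM was divided by the exon length that the files give. Over all 20 libraries the order of the means was Sdc3 (46.4 CPM per kilobase), Sdc4 (40.3), Gpc1 (34.7), Gpc4 (17.2), Gpc5 (12.4), Sdc2 (10.1), Gpc6 (2.25), Gpc3 (1.77), Sdc1 (0.336) and Gpc2 (0.124). Neighbours in this order whose libraries overlapped within a group were Gpc6 and Gpc3 in all groups but knockin dexamethasone, Gpc5 and Sdc2 in wild-type PBS, and Sdc1 and Gpc2 in wild-type dexamethasone libraries. The place of Sdc4 changed with treatment. Under dexamethasone it was the most abundant member, at 58.9 CPM per kilobase in knockin and 55.6 in wild-type libraries, above Sdc3 at 44.0 and 45.9 with no overlap of libraries. Under PBS it was at rank 3, at 22.9 CPM per kilobase in knockin and 23.7 in wild-type libraries, below Sdc3 at 48.2 and 47.7 and Gpc1 at 35.4 and 34.1.

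As a share of the length-scaled syndecan sum, Sdc4 was 52.3 ± 2.39% in knockin dexamethasone and 28.0 ± 2.77% in knockin PBS libraries, and 49.9 ± 2.74% in wild-type dexamethasone and 28.6 ± 2.78% in wild-type PBS libraries (SD, n = 5 each). Sdc3 was 39.1 ± 2.26% in knockin dexamethasone and 58.8 ± 2.84% in knockin PBS libraries, and 41.2 ± 1.93% in wild-type dexamethasone and 57.7 ± 2.51% in wild-type PBS libraries. The syndecan sum was 113 ± 2.36 CPM per kilobase in knockin dexamethasone and 81.8 ± 1.48 in knockin PBS libraries, and 111 ± 4.38 in wild-type dexamethasone and 82.6 ± 2.69 in wild-type PBS libraries. The glypican sum was 69.6 ± 1.15 CPM per kilobase in knockin dexamethasone and 68.6 ± 2.41 in knockin PBS libraries, and 68.3 ± 2.48 in wild-type dexamethasone and 67.2 ± 2.06 in wild-type PBS libraries. These sums are descriptions of the 10 members, without a test.

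**Figure D4:**
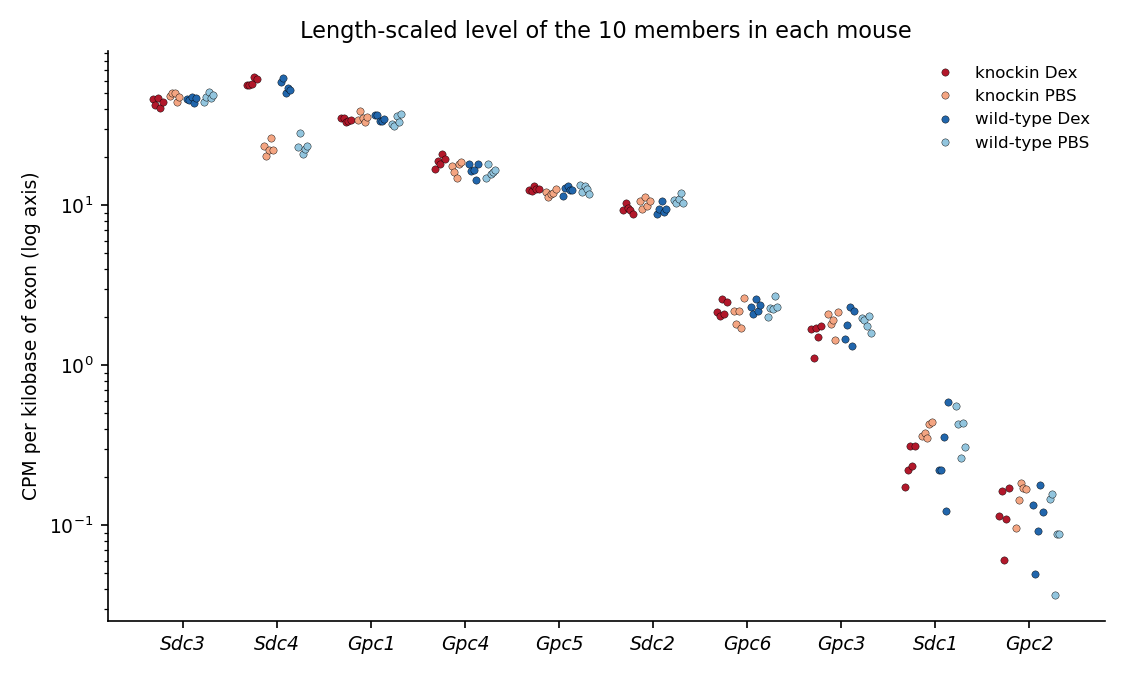
TMM-scaled CPM per kilobase of exon (log axis) is plotted for each member in every mouse, in order of the mean over all 20 mice, with colours for the 4 groups. The Sdc4 points split into dexamethasone mice at 50.3 to 63.6 and PBS mice at 20.4 to 28.3, and the levels of the 10 genes range from about 46.4 for Sdc3 to 0.124 for Gpc2.

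The genes whose pattern over the 20 libraries was most like that of each called member were ranked by the root mean square difference of centred log2 CPM. For Sdc4 they were Htra1, a secreted serine protease gene (difference 0.0771), Mertk, a phagocytosis receptor gene (0.134), and the metallothionein gene Mt1 (0.147). Their mean dexamethasone responses were 1.24, 1.08 and 1.12 on the log2 scale, beside 1.29 for Sdc4. The measure spans both treatments, so for Sdc4 it mainly picks genes with a response of like size. For Sdc2 they were Itgb1, integrin beta 1 (0.0778), the lipid phosphatase gene Pip4p2 (0.0787) and the sodium pump subunit gene Atp1b3 (0.079). For Sdc3 they were Nyap1 (0.0399), Phf1 (0.0438) and the neuronal RNA-binding protein gene Elavl3 (0.0455). Sdc2 and Sdc3 varied little over the libraries (SD 0.121 and 0.0859 on the log2 scale, against 0.678 for Sdc4), so a small difference from them says less.

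Heparan sulfate is built on these core proteins from a xylose-based linker that chondroitin sulfate shares, then extended by the exostosin enzymes and sulfated. The counts of the gene lists stand beside a share of called genes among all tested of 10.0% in knockin mice, 9.21% in wild-type mice and 18.2% in the mean response. Of 9 linker genes, 1 was called higher and 1 lower in each genotype. Xylt1, a xylosyltransferase that starts the linker, was at 63.9 ± 5.78 CPM in knockin dexamethasone and 89.9 ± 7.58 CPM in knockin PBS libraries, and 67.5 ± 7.55 CPM in wild-type dexamethasone and 90.5 ± 5.00 CPM in wild-type PBS libraries (SD, n = 5 each). On the log2 scale it fell by 0.49 in knockin (SE 0.07, edgeR adjusted p = 9.91e-05) and by 0.43 in wild-type mice (SE 0.08, edgeR adjusted p = 0.000573). Uxs1, which makes the xylose donor, rose by 0.21 in knockin (SE 0.06, edgeR adjusted p = 0.0236) and 0.22 in wild-type mice (SE 0.06, edgeR adjusted p = 0.0237), calls that held in 24 and 25 of 29 alternatives. The median of the list was 0.03 in knockin and -0.02 in wild-type mice.

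Of 5 exostosin family genes, 2 were called higher in knockin and 1 in wild-type mice, and 0 lower. The called genes were Extl3 and Extl2, whereas Ext1, Ext2 and Extl1 were not called. Extl3, which adds the sugar that commits a linker to heparan sulfate, rose by 0.16 in both genotypes (SE 0.03 each, edgeR adjusted p = 0.00115 in knockin and 0.0013 in wild-type mice). Extl2 was at 0.19 in knockin mice (SE 0.06, edgeR adjusted p = 0.0485) and 0.12 in wild-type mice (SE 0.06, edgeR adjusted p = 0.289), and its knockin call held in 11 of 29 alternatives (adjusted p up to 0.149). Of 19 sulfation and epimerization genes tested, 3 were called higher in knockin and 2 in wild-type mice, and 0 lower. The larger changes were in the 3-O-sulfotransferase genes Hs3st3a1 and Hs3st3b1. Hs3st3a1 was at 2.20 ± 0.878 CPM in knockin dexamethasone and 0.833 ± 0.288 CPM in knockin PBS libraries, and 2.50 ± 0.798 CPM in wild-type dexamethasone and 0.808 ± 0.197 CPM in wild-type PBS libraries. On the log2 scale it rose by 1.46 in knockin (SE 0.30, edgeR adjusted p = 0.00133) and by 1.57 in wild-type mice (SE 0.28, edgeR adjusted p = 0.000486). Hs3st3b1 rose by 1.13 in knockin (SE 0.29, edgeR adjusted p = 0.00986) and 1.12 in wild-type mice (SE 0.27, edgeR adjusted p = 0.00589). Parts of their coding sequences are nearly alike, and multi-mapping pairs were left out of the counts. The split of reads between these genes, both at low levels, is therefore uncertain. Hs6st1, which adds 6-O-sulfate, rose by 0.21 in knockin mice (SE 0.06, edgeR adjusted p = 0.0248), against 0.15 in wild-type mice (SE 0.06, edgeR adjusted p = 0.164), which was not called. The knockin call held in 23 of 29 alternatives.

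Of 16 genes that edit, shed or degrade the proteoglycans, 1 was called higher and 1 lower in knockin mice, and 1 higher and 2 lower in wild-type mice. Sulf2, an extracellular enzyme that removes 6-O-sulfate, was at 142 ± 3.63 CPM in knockin dexamethasone and 111 ± 5.01 CPM in knockin PBS libraries, and 144 ± 5.22 CPM in wild-type dexamethasone and 120 ± 8.93 CPM in wild-type PBS libraries. It rose by 0.35 in knockin (SE 0.04, edgeR adjusted p = 1.9e-06) and 0.26 in wild-type mice (SE 0.04, edgeR adjusted p = 0.000161). Mmp14, a membrane metalloprotease gene, fell by 0.36 in knockin (SE 0.08, edgeR adjusted p = 0.00286) and by 0.37 in wild-type mice (SE 0.08, edgeR adjusted p = 0.00235). Arsg, a lysosomal sulfatase gene, fell by 0.42 in wild-type mice (SE 0.12, edgeR adjusted p = 0.0304) and had a value of -0.36 in knockin mice (SE 0.12, edgeR adjusted p = 0.0581). The wild-type call held in 22 of 29 alternatives. In the mean response over both genotypes 2 of the 16 were called higher and 4 lower, among them the sheddase gene Adam17, which fell by 0.17 (SE 0.05, edgeR adjusted p = 0.0203).

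Of 16 cytoplasmic and signalling partners of syndecans, 2 were called higher and 1 lower in knockin mice, and 2 higher and 0 lower in wild-type mice. Ezr encodes ezrin, which links membrane proteins to actin. It was at 117 ± 9.96 CPM in knockin dexamethasone and 59.0 ± 8.08 CPM in knockin PBS libraries, and 113 ± 15.6 CPM in wild-type dexamethasone and 58.2 ± 4.26 CPM in wild-type PBS libraries (SD, n = 5 each), a rise of 0.98 (SE 0.10, edgeR adjusted p = 1.75e-06) in knockin and 0.95 (SE 0.10, edgeR adjusted p = 2.88e-06) in wild-type mice. Prkca, the protein kinase C that the syndecan-4 tail binds, rose by 0.30 in knockin (SE 0.07, edgeR adjusted p = 0.00481) and 0.23 in wild-type mice (SE 0.07, edgeR adjusted p = 0.0422). The wild-type call of Prkca held in 18 of 29 alternatives and without 11 of 20 single libraries (adjusted p up to 0.147 over all). Itgb1 fell by 0.14 in knockin mice (SE 0.04, edgeR adjusted p = 0.0384) and had a value of -0.09 in wild-type mice (SE 0.04, edgeR adjusted p = 0.235), and its knockin call held in 19 of 29 alternatives. The mean response called 6 of the 16 higher and 1 lower, against 18.2% of all genes in either direction. Of 12 synaptic partners of glypicans, 0 were called in either genotype by edgeR. In the mean response 2 of the 12 were called higher, the receptor phosphatase gene Ptprf at 0.20 (SE 0.06, edgeR adjusted p = 0.0129) and the AMPA receptor gene Gria2 at 0.09 (SE 0.03, edgeR adjusted p = 0.0406). The call of Ptprf held in 27 of 28 alternatives and that of Gria2 in 15 of 28 (adjusted p up to 0.111).

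Of 22 genes tested for ligands that bind heparan sulfate, 1 was called higher and 2 lower in knockin mice, and 2 higher and 2 lower in wild-type mice. Fgf2, a growth factor that needs heparan sulfate to bind its receptor well, was at 14.3 ± 1.65 CPM in knockin dexamethasone and 10.5 ± 1.16 CPM in knockin PBS libraries, and 12.7 ± 1.18 CPM in wild-type dexamethasone and 9.46 ± 0.594 CPM in wild-type PBS libraries. It rose by 0.45 in knockin (SE 0.08, edgeR adjusted p = 0.000379) and 0.42 in wild-type mice (SE 0.09, edgeR adjusted p = 0.00117). Wnt7a, a Wnt ligand gene, fell by 0.70 in both genotypes (SE 0.13 each, edgeR adjusted p = 0.000509 in knockin and 0.000667 in wild-type mice). Ptn, which encodes the syndecan-3 ligand pleiotrophin, fell by 0.17 in knockin mice (SE 0.04, edgeR adjusted p = 0.003) and had a value of -0.09 in wild-type mice (SE 0.04, edgeR adjusted p = 0.155). In wild-type mice Fgf1 rose by 0.19 (SE 0.04, edgeR adjusted p = 0.00169) and the chemokine gene Cxcl12 fell by 0.27 (SE 0.06, edgeR adjusted p = 0.00424). In knockin mice these genes had values of 0.11 and -0.15 (edgeR adjusted p 0.0767 and 0.142). The difference between genotypes was not called for any of the genes named here (edgeR adjusted p = 1.0 for each).

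Among 10 other genes for proteins that can carry heparan sulfate, 1 was called lower in each genotype. This was Cd44, the hyaluronan receptor gene, at 2.34 ± 0.519 CPM in knockin dexamethasone and 4.80 ± 0.966 CPM in knockin PBS libraries, and 2.17 ± 0.461 CPM in wild-type dexamethasone and 3.85 ± 0.493 CPM in wild-type PBS libraries. It fell by 1.00 in knockin (SE 0.16, edgeR adjusted p = 5.66e-05) and by 0.79 in wild-type mice (SE 0.17, edgeR adjusted p = 0.00197). Among 9 chondroitin sulfate proteoglycan genes, 2 were called higher and 2 lower in knockin mice, and 1 higher and 1 lower in wild-type mice. Vcan, which encodes versican, rose by 0.32 in knockin (SE 0.08, edgeR adjusted p = 0.00538) and 0.41 in wild-type mice (SE 0.08, edgeR adjusted p = 0.000692). Cspg5, which encodes neuroglycan C, fell by 0.47 in knockin (SE 0.05, edgeR adjusted p = 8.62e-08) and by 0.45 in wild-type mice (SE 0.05, edgeR adjusted p = 2.64e-07). In knockin mice the aggrecan gene Acan rose by 0.57 (SE 0.14, edgeR adjusted p = 0.00796) and the neurocan gene Ncan fell by 0.31 (SE 0.10, edgeR adjusted p = 0.0479). In wild-type mice Acan was at 0.38 (SE 0.15, edgeR adjusted p = 0.118) and Ncan at -0.21 (SE 0.10, edgeR adjusted p = 0.216), neither of them called. The knockin call of Ncan held in 12 of 29 alternatives (adjusted p up to 0.149). The medians of these lists lay between -0.08 and 0.10 on the log2 scale in both genotypes, beside a median near 0 over all genes tested.

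**Figure D5:**
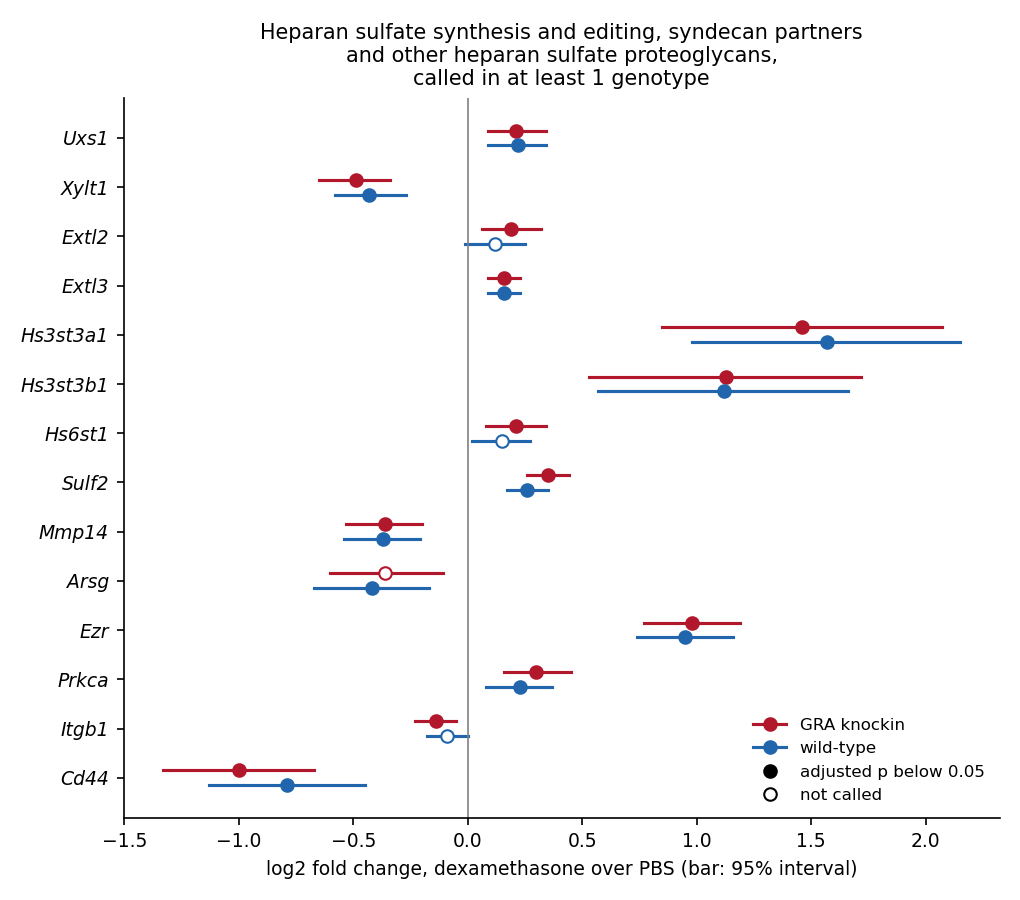
The log2 fold change of dexamethasone over PBS is plotted with its 95% interval, in GRA knockin and wild-type mice, for genes of heparan sulfate synthesis and editing, syndecan partners and other heparan sulfate proteoglycans that were called in at least 1 genotype; filled points passed an adjusted p below 0.05. Hs3st3a1, Hs3st3b1 and Ezr lie farthest to the right, Cd44 farthest to the left, and the intervals of the genotypes overlap for each gene.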

How the data were processed

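Poly(A) RNA of hippocampus was read as 75-base paired ends on 1 library per mouse, per the labels' protocols. The authors deposited raw read-pair counts for each gene, made with featureCounts 2.0.6 on the GENCODE M34 basic annotation without strand, per the file headers. The submitters' processing notes name STAR 2.5.1, build mm39, Subread 1.5.1 and DESeq2 1.38.3. Subread there differs in version from the headers, which are taken as the record of counting. Trimming and the settings of the alignment are not stated there. A names table (GRCm38) gave symbols for 51884 of 57126 identifiers; the rest held 0.264% to 0.337% of a library and stayed in the tests.

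Counts were fitted with edgeR 4.0.16 (R 4.3.3): filterByExpr (minimum count 10, minimum total 15), TMM scaling (factors 0.981 to 1.03) and a robust quasi-likelihood model on all 20 libraries with 1 term per group (16 residual degrees of freedom). P-values were adjusted over all genes tested by Benjamini-Hochberg. The fit was tested on simulated data. Alternatives were DESeq2 1.42.0, limma 3.58.1 voom, other filters, fits to the compared groups, a replicate block and fits without each library or the pairs high in liver or choroid plexus markers. No batch or date is given in the labels. Library pairs of a group were compared by chi-square per gene (2.51 to 12.6 over 40 pairs), and no duplicate was found. Depth limits the precision of low genes such as Sdc1 and Gpc2. The members and gene lists were chosen with earlier results of these data known. The text names all 10 members, up to 6 called genes per list and comparison, and the 3 genes most like each called member.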

Additional observations from a re-analysis of the deposited data

How the results depend on the processing

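No result reversed. Over up to 29 alternatives per comparison, 4159 fold changes of members and called list genes stayed on the same side of the threshold, 167 lost a call and 51 gained one; all 40 levels moved by less than 1 SD without TMM scaling. Among members the count called in knockin mice, 1 in the report, was 2 with the DESeq2 Wald test, with limma-voom, with the compared groups alone and without the pair high in liver markers. The added gene was Sdc3 (adjusted p = 0.0457, 0.0439 and 0.0432), except with the compared groups alone, where it was Sdc1 (-0.70, edgeR adjusted p = 0.0374). The count in wild-type mice, 2 in the report, was 1 without the pair high in choroid plexus markers, as Sdc2 was lost. Without single libraries the count ran from 1 to 2 in knockin mice, from 1 to 2 in wild-type mice, from 2 to 4 in the mean response and from 0 to 0 in both genotype comparisons and the difference of responses. The cause of these moves was not tested. The compared groups alone give no value for the mean response or the difference, which use all groups. With 50 counts in 5 libraries Sdc1 was not tested.

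Deviations of same-numbered libraries of different groups had a correlation of -0.108 to 0.249 over 30 pairs (median 0.0151, 5 above 0.1). Differently numbered libraries had -0.27 to 0.216 over 120 pairs (median -0.00551, 16 above 0.1). The ranges overlapped widely, and same-numbered libraries did not stand apart by this measure. The labels do not say what a number marks, and a shared litter or day was not tested. With a replicate block the knockin count was 2 in place of 1 (Sdc3, edgeR adjusted p = 0.0238), and the other member counts were the same. Low counts limit Sdc1 and Gpc2.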
